A study of Arabidopsis thaliana with 6 samples.

Results

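A set of 10 transporter genes of the Arabidopsis thaliana seed was followed in nuclear and cellular RNA of young embryos: the sugar exporters SWEET4, SWEET10, SWEET11, SWEET12 and SWEET15, the sucrose importers SUC2, SUC3 and SUC5, and the amino acid exporters UMAMIT14 and UMAMIT28. They were taken by the identifiers of their probe sets, each of which carries the locus (AT5G50790_at for SWEET10), and all 10 were found among the 27241 genes tested. Each is a row of its own, and none shared its 6 values with another row of the table. The 6 microarrays measured whole embryos at the 16-cell stage, 72 h after hand pollination. On 3 of them the RNA came from nuclei pulled down with INTACT, a method that biotinylates a tagged nuclear envelope protein in chosen cells; the submitters describe the tag's driver only as marking the whole embryo, without naming a promoter. On the other 3 it was cellular RNA of whole embryos dissected by micromanipulator. No genotype, line or ecotype is given in the sources used here for either group, and no plant was treated. The 2 groups differ in how the material was isolated as well as in the RNA compartment, and these cannot be told apart.

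A seed imports its carbon and nitrogen as sucrose and amino acids from the phloem, which ends in the maternal seed coat. Seed coat, endosperm and embryo have no cytoplasmic bridges to each other, so the nutrients must leave one tissue across its plasma membranes and be taken up by the next. SWEET proteins let sugars pass down their gradient and UMAMIT proteins let amino acids out of cells, while SUC proteins import sucrose together with protons. In Arabidopsis seeds SWEET11, SWEET12 and SWEET15 act together in feeding the embryo with sucrose.

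All values are log2 RMA intensities (robust multi-array average, a background-corrected and normalised probe summary), and differences are nuclear minus cellular on that scale. Array medians lay between 2.56 and 2.68 on the nuclear arrays and between 2.47 and 2.53 on the cellular arrays. The lower quartile was higher on the nuclear arrays, at 1.96 to 2.13 against 1.82 to 1.88 on the cellular arrays. The upper quartile was lower, at 3.63 to 3.82 against 3.95 to 4.06. No detection calls were used here, so whether a gene near or below the median was detected is not known. A fold against such a level may be compressed, which was not measured, and the 3 arrays per group limit the precision. The embryo label was checked with 13 embryo markers, among them WOX2, WOX8, LEC1 and MP, regulators of early embryo patterning. These markers had medians of 2.39, 2.84 and 2.24 on nuclear replicates 1 to 3. On cellular replicates 1 to 3 the medians were 7.24, 5.99 and 6.07. Of the 13, 8 fell in nuclear RNA and 0 rose (limma, adjusted p under 0.05), against 4.71% and 1.15% of all genes. On the nuclear arrays the embryo list thus lay near the array medians. MP, the brightest of them, still stood at 5.76, 5.99 and 5.23 on the nuclear arrays, against 7.94, 8.06 and 7.22 on the cellular ones. Markers of the seed coat, chiefly of flavonoid and tannin synthesis, had medians of 7.23, 6.26 and 6.78 on the nuclear arrays, against 3.31, 5.76 and 7.31 on the cellular arrays. By the list median, cellular replicate 3 thus stood as high as the nuclear arrays. By summed intensity, at 3973.3, it lay below nuclear replicates 1 (7136.6) and 3 (4331.5) and above nuclear replicate 2 (3149.6). All 17 seed coat genes averaged higher on nuclear arrays, as did 16601 of all 27241 genes, and 0 passed the test (limma). At an unadjusted p under 0.05, 4 were higher, against 10.1% of all genes. The 17 had summed intensities of 3149.6 to 7136.6 on nuclear and 469.5 to 3973.3 on cellular arrays, and none of them lay below the median on all arrays. Of 14 endosperm markers, 10 lay below the array median on all 6 arrays, AGL62 and FIS2 among them. The list summed to 50.7 to 91.1 on nuclear arrays, highest on replicate 2, and to 47.3 to 65.0 on cellular arrays. PHE1, the brightest of the list, measured 2.34, 4.95 and 2.00 on the nuclear arrays, against 2.12, 2.49 and 3.28 on the cellular arrays. In RNA of many nuclei or of whole embryos, fewer cells of a type and less RNA per cell cannot be told apart.

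Of the 10 transporters, SWEET10 alone rose in nuclear RNA and 0 fell (two-sided limma test at an adjusted p under 0.05, with Benjamini-Hochberg adjustment over all genes). Over all genes tested, 1.15% were called higher and 4.71% lower. At an unadjusted p under 0.05, 4 of the 10 were higher (SWEET4, SWEET10, SUC2 and SUC3), against 10.1% of all genes, and 2 were lower (SWEET12 and SUC5), against 13.3% of all genes. In 7 of the 10 the nuclear and cellular arrays were fully separated: all nuclear arrays lay above all cellular arrays for SWEET4, SWEET10, SWEET15, SUC2 and SUC3, as they did for 18.6% of all genes, and below them for SWEET12 and SUC5, as for 14.4% of all genes. The median change of the 10 was 0.82, against 0.13 for all genes, with a range from -1.64 to 2.99. On the nuclear arrays 7 of the 10 lay above the array median each time. SWEET15 and UMAMIT28 lay below it on every array, so their values describe the dim end of the scale.

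**Figure D1:**
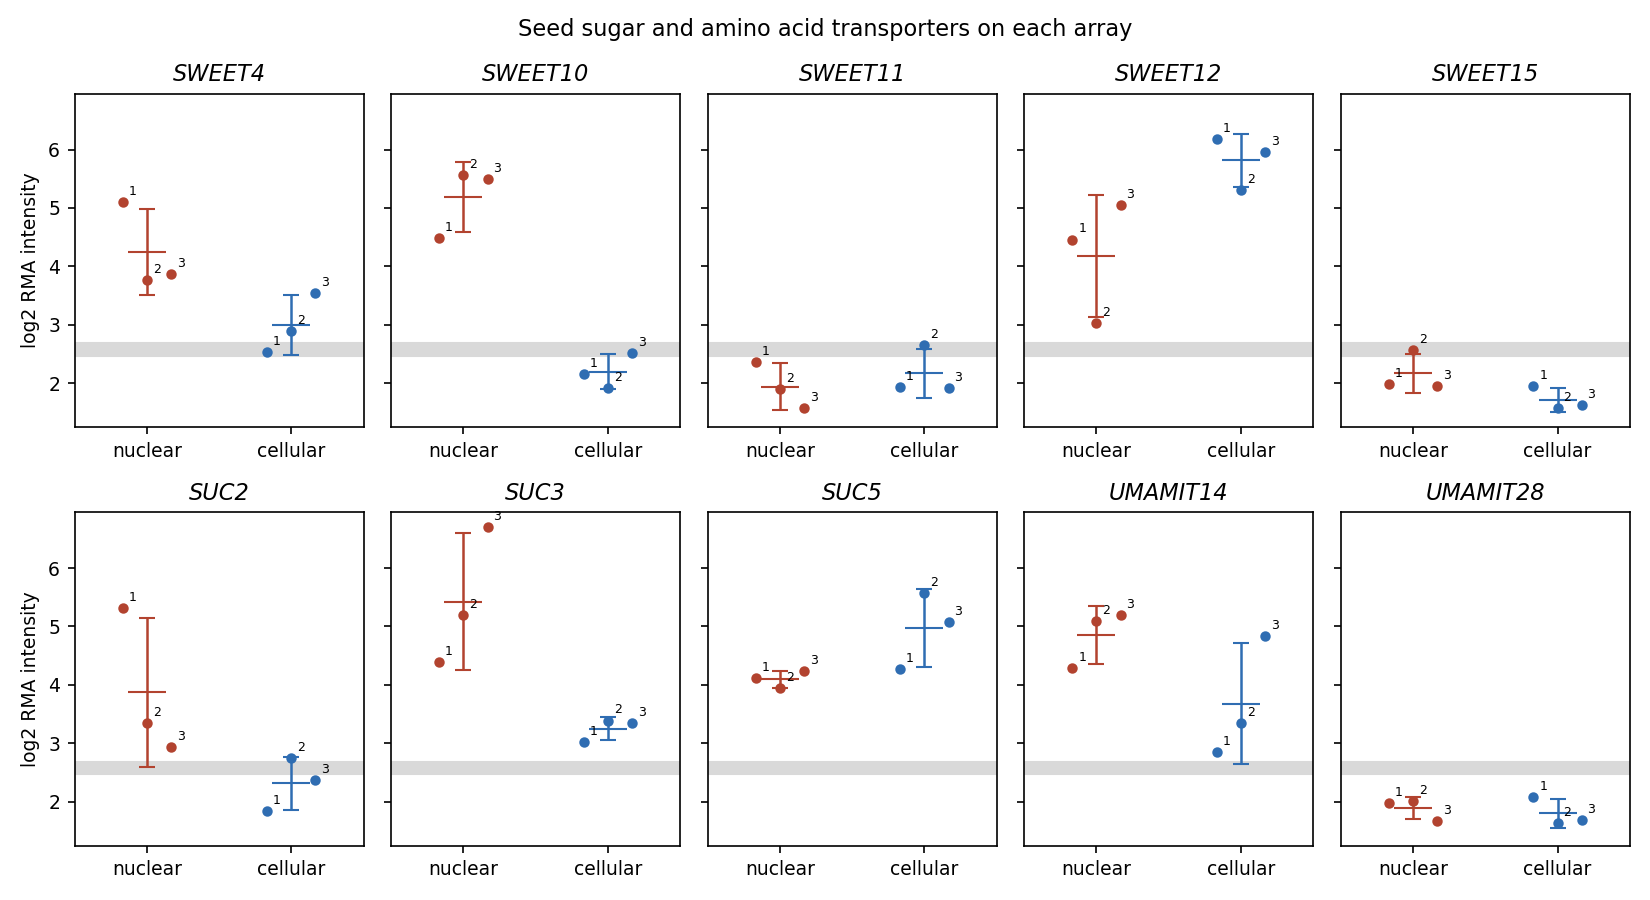
Log2 RMA intensity of the 10 transporters on each array, nuclear (left, red) and cellular (right, blue); numbers are replicates, horizontal marks the group means, bars the SD of 3 arrays, and the grey band the range of the 6 array medians. SWEET10 is clearly separated with nuclear arrays above, SWEET12 and SUC5 have the cellular arrays above, and SWEET11, SWEET15 and UMAMIT28 sit at or under the band.

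SWEET10 (AT5G50790_at) is a sugar exporter known in Arabidopsis from the shoot apex, where it is switched on at the transition to flowering. It measured 4.49, 5.57 and 5.50 on nuclear replicates 1 to 3, against 2.15, 1.92 and 2.52 on cellular replicates 1 to 3. Every nuclear array lay far above every cellular one, and the cellular values lay below their array medians. The nuclear mean was 5.18 ± 0.606 and the cellular mean 2.20 ± 0.301 (SD, n = 3 each), a 7.94-fold difference (log2 change 2.99, SE 0.35, 95% interval 2.14 to 3.83; limma adjusted p = 0.0103). Of 313 genes called higher over the whole table, 57 had a larger change. The call was lost without cellular replicate 2 (log2 change 2.85, adjusted p = 0.0552) and kept under the other 14 of 15 alternatives. On cellular replicate 3, where the seed coat median was 7.31, SWEET10 measured 2.52, the highest of its cellular values but below all nuclear ones. The part of seed coat RNA in this result was not tested.

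SWEET13, a sugar transporter known from anthers, is the next gene to SWEET10 on chromosome 5. It measured 2.10, 3.27 and 2.29 on the nuclear arrays, against 2.10, 1.90 and 2.19 on the cellular arrays. These groups overlap and the change did not pass (0.49, 95% interval -0.32 to 1.30, adjusted p = 0.406). The change of SWEET10 exceeded that of SWEET13 by 2.50 on the log2 scale (exact permutation test over arrays, two-sided, p = 0.10, the smallest p that 3 arrays against 3 allow; 0.15 adjusted over the 3 gene pairs compared, which were chosen after their values were seen).

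SWEET12 (AT5G23660_at), which exports sucrose from leaf phloem cells and, in the seed, from the seed coat, was among the transporters with lower nuclear values. It measured 4.46, 3.03 and 5.05 on the nuclear arrays, against 6.18, 5.31 and 5.96 on the cellular arrays. The highest nuclear array lay just under the lowest cellular one, and nuclear replicate 2 stood well under its group. The change was -1.64 (SE 0.54, 95% interval -2.95 to -0.32) and did not pass (adjusted p = 0.143). Without nuclear replicate 2 it was -1.06. SWEET12 was brightest on cellular replicate 1, where the seed coat median was lowest, at 3.31, and the embryo median highest, at 7.24. Of the nuclear arrays it was lowest on replicate 2, where the seed coat median was also lowest (6.26) and the embryo median highest (2.84). A tie of SWEET12 to either list was not tested. Of the 15768 genes whose arrays spanned at least 1 on the log2 scale, those closest to SWEET12 in pattern over the 6 arrays were ECT10 (Pearson r 0.9927), RUB1 (0.9919) and NOXY2 (0.9901), a description of arrays that fall in 2 groups.

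SWEET11 (AT3G48740_at), the close relative that shares phloem loading with SWEET12 in leaves, was dim: 2.36, 1.90 and 1.57 on the nuclear arrays, against 1.94, 2.65 and 1.92 on the cellular arrays. The groups overlap, and only cellular replicate 2 rose above its array median. The change was -0.23 (95% interval -0.97 to 0.52, adjusted p = 0.668). The changes of SWEET11 and SWEET12 differed by 1.41 (exact permutation test, two-sided, p = 0.20; 0.20 adjusted over the 3 pairs, in a design whose smallest p is 0.10). SWEET15 (AT5G13170_at), also named SAG29 and known from senescing leaves as well as seeds, measured 1.99, 2.56 and 1.95 on the nuclear arrays, against 1.95, 1.57 and 1.62 on the cellular arrays. Nuclear replicate 2 was the highest, and nuclear replicate 3 and cellular replicate 1 were level to 2 decimals. Its change was 0.46 (95% interval -0.13 to 1.05, adjusted p = 0.308).

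SWEET4 (AT3G28007_at), a hexose transporter of Arabidopsis veins, had higher nuclear values that did not pass. It measured 5.10, 3.77 and 3.87 on the nuclear arrays, against 2.53, 2.90 and 3.55 on the cellular arrays. The groups do not overlap, but nuclear replicate 2 and cellular replicate 3 lay close to each other. The change was 1.26 (SE 0.45, 95% interval 0.18 to 2.33, adjusted p = 0.164), and 0.83 without nuclear replicate 1. Across the cellular arrays SWEET4 was highest on replicate 3 and lowest on replicate 1, the same order as the seed coat median of 3.31, 5.76 and 7.31. The phloem (2.01, 2.06 and 2.14) and endosperm (1.70, 1.74 and 1.83) marker medians rose in that order too. The part of seed coat RNA in this result was not tested.

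Among the sucrose importers, SUC3 (AT2G02860_at), also named SUT2, is expressed in sink tissues and along the phloem. It measured 4.39, 5.19 and 6.70 on the nuclear arrays, against 3.02, 3.39 and 3.34 on the cellular arrays. The cellular arrays were tight and the nuclear ones spread over more than 2 log2 units, with replicate 3 the highest. Its change, 2.18 (SE 0.57, 95% interval 0.80 to 3.56), was next in size to that of SWEET10 among the 10 but did not pass (adjusted p = 0.0822). It passed where genes with a mean under the median of all values were left out of the fit (adjusted p = 0.0410), but not with the lower quartile as the limit (adjusted p = 0.0604). Without nuclear replicate 3 the change was 1.54.

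SUC2 (AT1G22710_at) is the sucrose importer that loads the phloem, made in companion cells. It measured 5.32, 3.35 and 2.94 on the nuclear arrays, against 1.84, 2.74 and 2.37 on the cellular arrays. Nuclear replicate 1 stood apart, while nuclear replicate 3 lay only a little above cellular replicate 2. The change was 1.55 (SE 0.64, 95% interval 0.00 to 3.10, adjusted p = 0.212), and 0.83 without nuclear replicate 1. All 11 phloem markers averaged higher on the nuclear arrays, as did 16601 of all 27241 genes, and 0 of them passed (limma). At an unadjusted p under 0.05, 3 were higher, against 10.1% of all genes. Of the 11, 2, NAC45 and NEN4, lay below the median on every array. The 11 markers had a summed intensity of 342.1, 133.1 and 184.7 on nuclear replicates 1 to 3, and 71.1 to 116.8 on the cellular arrays. Bright genes weigh most in that sum. The list median was 2.50, 2.73 and 2.44 on the same nuclear arrays, highest on replicate 2. On the cellular arrays it was 2.01, 2.06 and 2.14. The part of phloem RNA in the SUC2 values was not tested. AHA3, a plasma membrane proton pump of companion cells and the brightest of these markers, measured 7.83, 6.08 and 6.64 on the nuclear arrays, against 4.62, 5.42 and 6.14 on the cellular arrays.

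SUC5 (AT1G71890_at) imports sucrose, and also biotin, and is known from the endosperm of young seeds. It measured 4.11, 3.94 and 4.23 on the nuclear arrays, against 4.27, 5.58 and 5.07 on the cellular arrays. The nuclear arrays were close together, and cellular replicate 1 lay only just above them. The change was -0.88 (SE 0.35, 95% interval -1.72 to -0.03) and did not pass (adjusted p = 0.200). It was -0.57 without cellular replicate 2, -0.46 after cyclic loess and -0.51 after quantile normalization. The endosperm list, with a median of 1.90, 2.23 and 1.89 in nuclear RNA, against 1.70, 1.74 and 1.83 in cellular RNA, lay at the dim end of the scale in both groups. The genes closest to SUC5 in pattern were AT5G03030 (r 0.9968), AT1G25275 (0.9960) and AT2G07692 (0.9926), over the same 6 arrays, each with its highest value on cellular replicate 2.

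SUC1, the neighbour of SUC5 on chromosome 1 and a sucrose importer known from pollen and roots, ran the other way. It measured 4.30, 4.07 and 3.69 on the nuclear arrays, against 2.67, 2.18 and 2.25 on the cellular arrays. The groups are well apart, and the nuclear mean was 3.14 times the cellular one (adjusted p = 0.0186, with a log2 change of 1.65 and an SE of 0.25). The call was lost without cellular replicate 2 (adjusted p = 0.0869) or nuclear replicate 2 (adjusted p = 0.0594). On each array the SUC5 value minus the SUC1 value was -0.19, -0.12 and 0.54 in nuclear RNA, against 1.60, 3.40 and 2.81 in cellular RNA. The changes of the neighbours thus differed by -2.53, with no overlap between the groups (exact permutation test, two-sided, p = 0.10, the smallest possible; 0.15 adjusted over the 3 pairs).

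**Figure D2:**
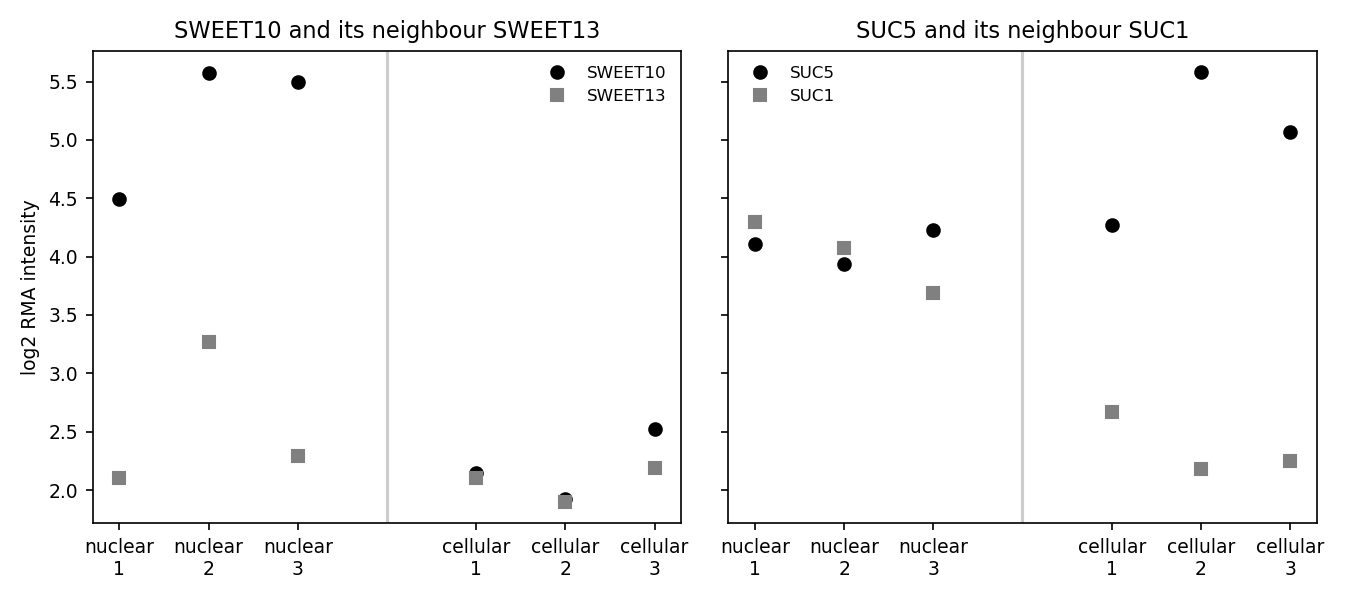
Log2 RMA intensity of SWEET10 with SWEET13 (left) and SUC5 with SUC1 (right) on nuclear and then cellular arrays 1 to 3; each gene is to be compared with itself between the groups, since levels of different genes are not on a common scale. SWEET10 is higher on the nuclear arrays while SWEET13 overlaps between the groups, and SUC1 is higher on the nuclear arrays while SUC5 is lower.

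UMAMIT14 (AT2G39510_at), an amino acid exporter of phloem unloading in roots and seeds, measured 4.29, 5.09 and 5.20 on the nuclear arrays, against 2.85, 3.35 and 4.84 on the cellular arrays. Cellular replicate 3 lay above nuclear replicate 1, so the groups overlap. The change was 1.18 (SE 0.55, 95% interval -0.15 to 2.52, adjusted p = 0.257), with 1.76 (adjusted p = 0.0520) without cellular replicate 3 and 0.77 (adjusted p = 0.508) without cellular replicate 1. On the cellular arrays UMAMIT14 stood in the same order as the seed coat median of 3.31, 5.76 and 7.31. The phloem (2.01, 2.06 and 2.14) and endosperm (1.70, 1.74 and 1.83) medians rose in that order too. On the nuclear arrays UMAMIT14 was lowest on replicate 1, where the seed coat median was highest, at 7.23. The part of seed coat RNA was not tested. The genes closest to UMAMIT14 in pattern were BRH1 (r 0.9887), AT2G01540 (0.9868) and AT1G19210 (0.9864). UMAMIT28 (AT1G01070_at), an amino acid exporter known from the endosperm, measured 1.98, 2.01 and 1.67 on the nuclear arrays, against 2.08, 1.63 and 1.69 on the cellular arrays. All values lay below the array medians, and the change was 0.08 (95% interval -0.44 to 0.60, adjusted p = 0.833), with a sign that turned under other scalings of the arrays.

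**Figure D3:**
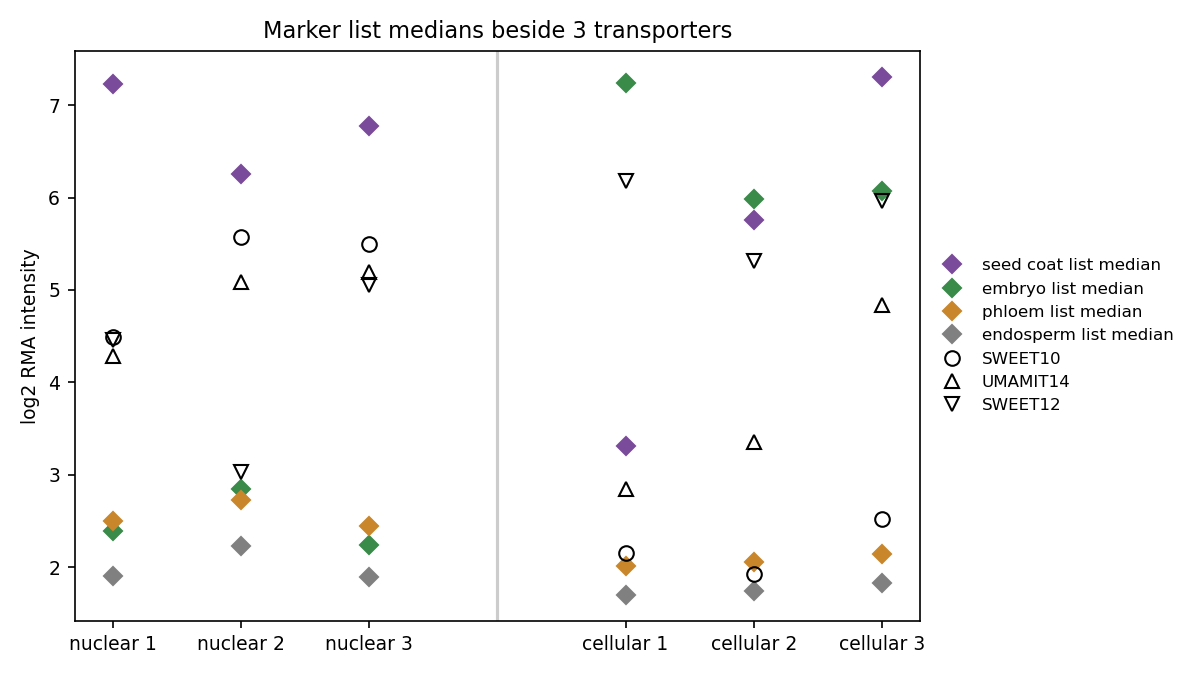
Medians of the seed coat (17 genes), embryo (13), phloem (11) and endosperm (14) marker lists (filled diamonds) and the values of SWEET10, UMAMIT14 and SWEET12 (open symbols) on each array, as log2 RMA intensity. On cellular replicate 3 the seed coat median is 7.31 and UMAMIT14 is 4.84, close to the nuclear arrays, while SWEET10 is 2.52. The part of seed coat RNA in these values was not tested.

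The rest of the pathway was read from 90 genes listed by family. Of these, 3 rose in nuclear RNA (SUC1, AAP2 and SUS6) and 0 fell, against 1.15% and 4.71% of all genes. At an unadjusted p under 0.05, 14 of the 90 were higher, against 10.1% of all genes, and 2 lower, against 13.3%. Their median change was 0.35, against 0.13 for all genes, and 80 of the 90 had a higher nuclear mean, as did 16601 of all 27241 genes. All nuclear arrays lay above all cellular ones for 29 of the 90, against 18.6% of all genes, and below them for 3, against 14.4%. Leaving out cellular replicate 3 raised the number of calls to 7, with SWEET1, STP12, UMAMIT15 and AAP5 joining the other 3, and leaving out cellular replicate 2 left AAP2 alone.

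**Figure D4:**
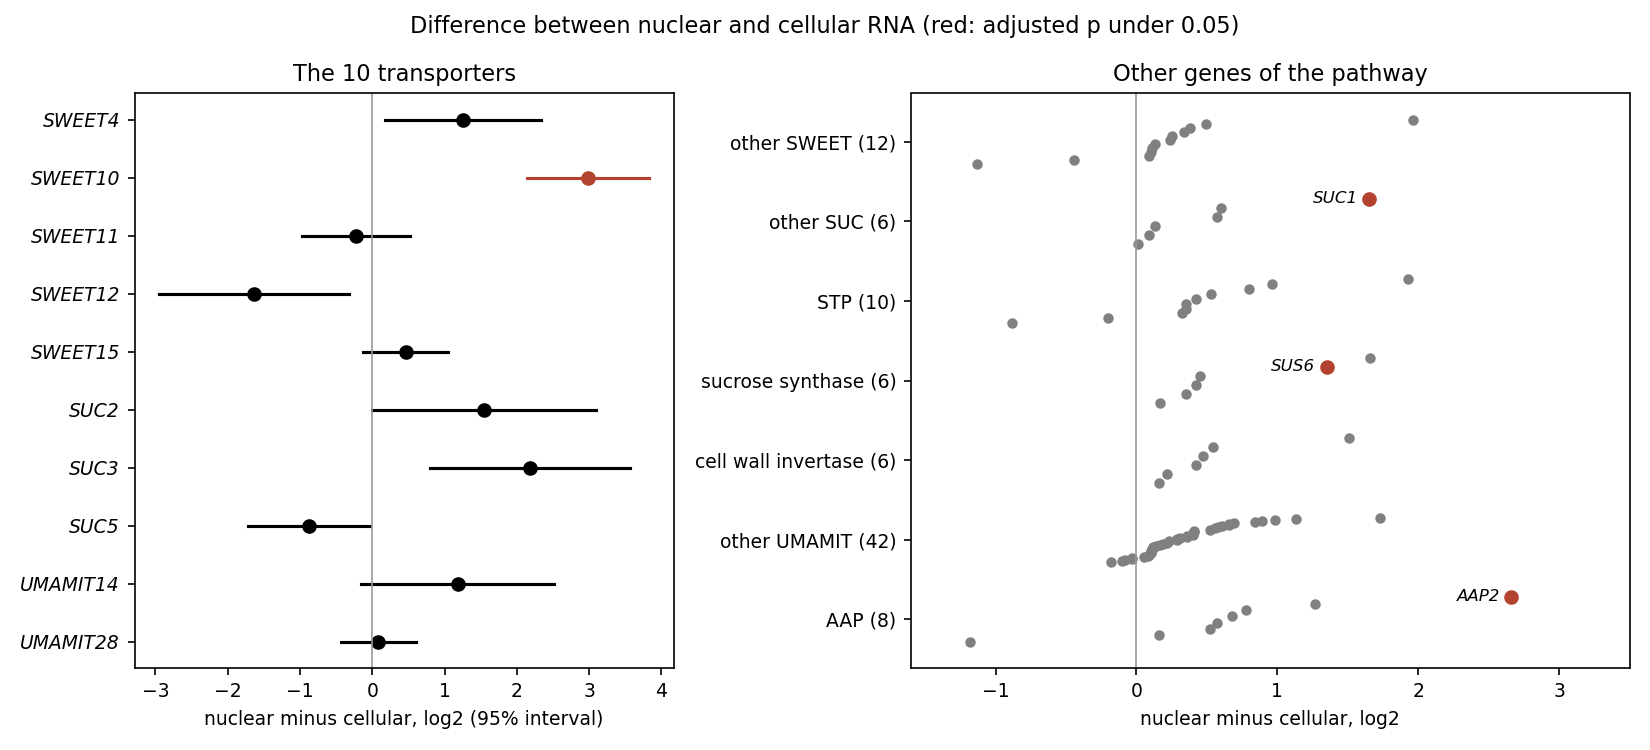
Nuclear minus cellular differences on the log2 scale for the 10 transporters (left, with 95% intervals) and for the 90 other genes by family (right, 1 point per gene, family sizes in brackets); red marks an adjusted p under 0.05. SWEET10 at 2.99 is the called member, and SUC1 at 1.65, AAP2 at 2.66 and SUS6 at 1.35 are the called genes of the other families.

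Among the 12 other SWEET genes 0 passed (limma), and their median change was 0.19. At an unadjusted p under 0.05, 0 were higher and 1 lower, against 10.1% and 13.3% of all genes. The lowest p was that of SWEET5, a sugar transporter known from pollen, which measured 2.99, 3.05 and 3.43 on the nuclear arrays, against 5.16, 3.77 and 3.92 on the cellular arrays (change -1.13, adjusted p = 0.165). SWEET1, a glucose transporter singled out after its values were seen, measured 7.65, 7.15 and 6.28 on the nuclear arrays, against 4.23, 3.92 and 7.06 on the cellular arrays. Cellular replicate 3 lay above nuclear replicate 3, and the change of 1.96 did not pass (adjusted p = 0.240). Without that cellular array it was 2.95 (adjusted p = 0.0224). The 5 other SUC genes beside SUC1 did not pass, and 2 of these, SUC7 and SUC8, lay below the array median throughout.

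The 10 STP genes, which import hexoses after sucrose is split, gave 0 calls (limma) and a median change of 0.39. At an unadjusted p under 0.05, 2 were higher and 0 lower, against 10.1% and 13.3% of all genes. STP4, a monosaccharide importer of sink tissues, had the lowest p, with 4.01, 3.59 and 4.80 on the nuclear arrays, against 2.98, 3.57 and 2.96 on the cellular arrays (change 0.96, adjusted p = 0.182). The 6 cell wall invertases, which split sucrose outside the cell, gave 0 calls (limma) and a median change of 0.45. At an unadjusted p under 0.05, 0 passed in either direction, against the same shares of all genes. CWINV5, which lay below the array median on all arrays, had the lowest p (change 0.47, adjusted p = 0.296). Of the 6 sucrose synthases, which split sucrose inside the cell, SUS6 rose. It measured 3.23, 2.89 and 3.55 on the nuclear arrays, against 1.76, 1.95 and 1.92 on the cellular arrays, which lay below their medians (2.55-fold, change 1.35, SE 0.23, adjusted p = 0.0257). The SUS6 call was lost under 7 of 14 alternatives, including cyclic loess (adjusted p = 0.0531) and each of 4 left-out arrays, cellular replicates 1 and 2 and nuclear replicates 1 and 3 (adjusted p up to 0.10).

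On the amino acid side, the 42 other UMAMIT genes gave 0 calls (limma), and 27 of them lay below the array median on every array. At an unadjusted p under 0.05, 5 were higher and 0 lower, against 10.1% and 13.3% of all genes. The lowest p was that of UMAMIT34, with 2.30, 2.71 and 2.84 on the nuclear arrays, against 1.86, 1.74 and 1.73 on the cellular arrays (change 0.84, adjusted p = 0.0726). Of the 8 AAP genes, amino acid permeases that import with protons, AAP2 rose. AAP2, which moves amino acids between xylem and phloem, measured 5.88, 5.63 and 6.07 on the nuclear arrays, against 3.35, 2.88 and 3.38 on the cellular arrays. Both groups were tight and far apart, and the difference was 6.31-fold (log2 change 2.66, SE 0.23, 95% interval 2.10 to 3.21, adjusted p = 0.00526). The AAP2 call was kept under all 15 alternatives, with adjusted p up to 0.0326. On cellular replicate 3, where the seed coat median was 7.31, AAP2 measured 3.38, the highest of its cellular values by a small margin. The part of seed coat RNA in this result was not tested.

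AAP8 and AAP5, singled out after their values were seen, lay on either side of 0 with groups that do not overlap. AAP8, which imports amino acids into young seeds, measured 2.14, 2.68 and 2.93 on the nuclear arrays, against 4.0, 3.68 and 3.62 on the cellular arrays (change -1.18, 95% interval -1.82 to -0.55, adjusted p = 0.0564). AAP5 measured 4.22, 3.88 and 4.57 on the nuclear arrays, against 2.72, 2.80 and 3.35 on the cellular arrays (change 1.27, 95% interval 0.61 to 1.94, adjusted p = 0.0518). Neither passed as deposited, and both passed with array weights (limma adjusted p = 0.0452 for AAP8 and 0.0393 for AAP5). AAP8 passed under no other alternative. AAP5 also passed after cyclic loess (adjusted p = 0.0361) and after quantile normalization (0.0271). It passed as well with the lower quartile as the limit for dim genes (0.0497) and without cellular replicate 3 (0.0397).

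**Figure D5:**
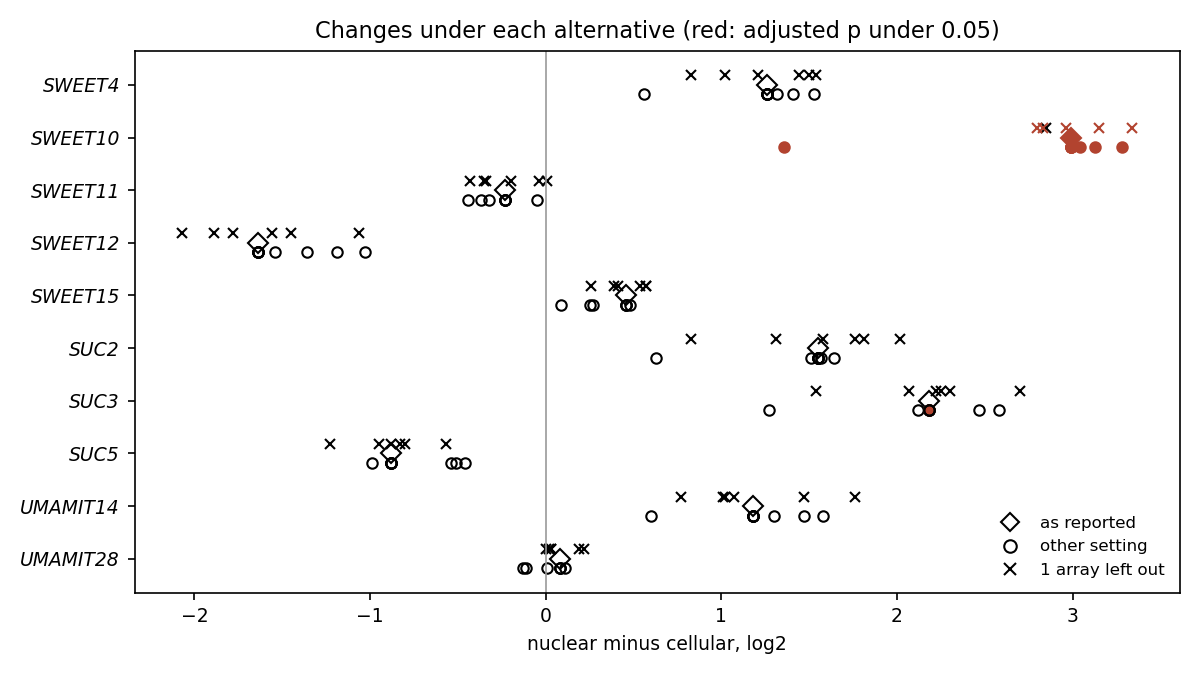
Nuclear minus cellular change of each transporter on the log2 scale as reported (diamond), under 9 other settings (circles) and with each of the 6 arrays left out (crosses); red marks an adjusted p under 0.05. SWEET10 stays at or above 1.36 throughout, the lowest value coming from adding 16 to each intensity, SWEET12 stays between -2.07 and -1.03, and SWEET11 and UMAMIT28 reach 0.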

How the data were processed

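Per the submitters' processing notes, the authors computed the deposited intensity values with RMA. The sources used here do not give its version, the type of array or how probe sets were defined. The values proved to be linear, and their log2 was analysed with no further normalization or filter. Sample titles gave the groups and replicate numbers and name biological replicates. Whether these came from separate plants is not said. The p-values therefore measure the spread between these samples, and how far that spread lies between plants is not known. A RefSeq gene table (assembly TAIR10.1) named 27241 of 27826 rows, which were tested, and the other 585 were left out. In the absence of a stated build, coordinates are not printed, and neighbours follow the order of that table. The model was limma's (version 3.58.1, R 4.3.3; lmFit, then eBayes with 4 residual and 2.33 prior degrees of freedom), two-sided, with a threshold of 0.05 after Benjamini-Hochberg adjustment over all tested genes, and was tested on simulated data. The 10 transporters and all lists were chosen with earlier results of these data known. UMAMIT and STP genes were listed by symbol or synonym, the others by locus. The text names the 10 members, the 2 largest called rises and falls of each pathway list or else its lowest p, the brightest marker of each list (PHE1 for endosperm, CHS for seed coat), and for the brightest member of each family the 3 genes most correlated with it; other names were chosen after their values were seen. Alternatives were cyclic loess, quantile normalization, 2 filters on dim genes, array weights, a trended robust variance, a replicate block, all rows, an offset of 16 and each array left out.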

Additional observations from a re-analysis of the deposited data

How the results depend on the processing

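The 10 transporters gave 1 rise and 0 falls under 13 of 15 alternatives. The exceptions were the fit over genes with a mean above the median of all values, where 7 of the 10 were tested and 2 rose (SWEET10 and SUC3), and that without cellular replicate 2, so that leaving out single arrays gave 0 to 1 rise. The change of SWEET10 lay between 1.36 and 3.34, with adjusted p from 0.00505 to 0.0552. The sign turned for SWEET11 without cellular replicate 2 (0.01; -0.43 to 0.01 with single arrays left out) and for UMAMIT28 after cyclic loess (-0.13), after quantile normalization (-0.11) and without cellular replicate 2 (0.00; 0.00 to 0.22 with single arrays left out). The cause was not tested. Among the 90 pathway genes, leaving out single arrays gave 1 to 7 rises, and array weights gave 1 fall, that of AAP8. Over all genes, 489 rose and 846 fell after cyclic loess, which took the median change of all genes to 0.02 from 0.13, and 145 rose and 706 fell with an offset of 16. Leaving out single arrays gave 28 to 419 rises and 254 to 1688 falls. Samples that share a replicate number did not deviate together (correlations of -0.05, -0.06 and -0.01 over genes), and the main fit did not pair them. With 3 arrays per group these correlations cannot exclude that a number marks samples collected together. A replicate block gave 118 rises and 571 falls over all genes; with that block SWEET10, AAP2 and SUC1 were still called and SUS6 was not (adjusted p = 0.0807).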

Other observations

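Several transporters outside the 10, chosen here after their values were seen, had cellular replicate 3 close to the nuclear arrays or among them. AAP1, which imports amino acids into the embryo, measured 7.07, 5.24 and 5.85 on nuclear replicates 1 to 3, against 4.51, 4.67 and 6.62 on cellular replicates 1 to 3. UMAMIT41 measured 6.04, 4.70 and 5.35 on the nuclear arrays, against 3.49, 4.68 and 6.18 on the cellular arrays. STP12, a hexose importer, measured 6.79, 6.04 and 6.36 on the nuclear arrays, against 2.87, 4.54 and 5.97 on the cellular arrays, and UMAMIT15 measured 7.15, 6.32 and 5.99, against 3.75, 4.57 and 5.95. In each of these the cellular arrays stood in the order of the seed coat median (3.31, 5.76 and 7.31). Choosing genes with a high cellular replicate 3 fixes the top of that order. The share of all genes with the order was not counted. SWEET1, which also had cellular replicate 3 among the nuclear arrays, did not follow it (4.23, 3.92 and 7.06).

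A few other genes stood out on nuclear replicate 1, as SUC2 did. CWINV4, a cell wall invertase needed in nectaries, measured 5.77, 2.15 and 3.38 on the nuclear arrays, against 1.83, 2.16 and 2.76 on the cellular arrays. AAP3 measured 4.22, 2.64 and 2.58 on the nuclear arrays, against 2.38, 2.69 and 2.32 on the cellular arrays. OPS, a phloem marker, measured 5.68, 2.98 and 3.01 on the nuclear arrays, against 3.60, 2.82 and 2.95 on the cellular arrays. TT8, a seed coat marker, measured 7.23, 3.53 and 4.01 on the nuclear arrays, against 2.68, 2.46 and 2.83 on the cellular arrays. None of these differences passed the limma test (adjusted p from 0.214 for TT8 to 0.55 for OPS).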
